A study of Drosophila melanogaster with 23 samples.

Results

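Aminoacyl-tRNA synthetases are the enzymes that join each amino acid to its transfer RNA (tRNA). The genes described here were all rows of both deposited count tables whose symbol is an amino acid abbreviation followed by RS, with or without the ending -m, or names a subunit of the phenylalanine enzyme. This rule found 35 genes among the 17103 symbols present in both tables. Of these, 15 have symbols ending in -m and encode mitochondrial enzymes, and the other 20 are called cytosolic here. For glycine, histidine, lysine and threonine the only gene lacks the ending -m. The symbols do not say whether those genes also serve mitochondria, so cytosolic is the name of a set defined by symbol. Every synthetase symbol of the current RefSeq gene table had a row that met the rule. All 35 genes passed the filter on low counts and were tested in all 4 comparisons.

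The data are bulk RNA-seq of hearts taken out of Drosophila melanogaster adults of 2 control strains, w1118 and attp2, and of flies labelled LamC RNAi. The groups were w1118 at 1 week (n = 4) and 5 weeks (n = 4), attp2 at 1 week (n = 5) and 5 weeks (n = 5), and attp2 with LamC RNAi at 1 week (n = 5). In the last group, RNAi against Lamin C, the A-type nuclear lamin, was driven from the regulatory region of Hand, which encodes a transcription factor of heart cells. The sources used here do not give sex, the number of hearts pooled in a library, any driver carried by the controls, or whether the libraries of a group came from separate animals. The p-values therefore measure the spread between these libraries, which may be technical in part. The series set out to find genes that change with age in w1118, changes shared by both control strains, and changes shared by ageing attp2 hearts and LamC RNAi hearts.

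Each synthetase recognises its own amino acid and the matching tRNAs, and the charged tRNAs feed the ribosome. The enzymes fall into class I and class II, which have unrelated catalytic folds. Cytosolic enzymes serve translation in the cytoplasm, whereas the mitochondrial ones, also encoded in the nucleus, serve the few proteins made inside mitochondria, most of which are subunits of the respiratory chain. In mammals, 8 of the cytosolic enzymes sit in a complex held together by the scaffold proteins AIMP1, AIMP2 and AIMP3. GluProRS carries the glutamate and the proline enzyme in a single protein, and the cytosolic phenylalanine enzyme is built from alpha-PheRS and beta-PheRS. Mitochondria charge tRNA for glutamine by another route, through the amidotransferase made of GatA, GatB and GatC. Shortage of an amino acid raises transcription of many cytosolic synthetase genes in mammals through ATF4, the factor encoded by crc in flies.

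Depth was 21.8 to 90.0 M counts (M, mega) over the 23 libraries, and the synthetase genes took 0.136% to 0.235% of the counts. The lowest count of a cytosolic gene in any library was 636, and that of a mitochondrial gene 83. The heart markers Hand, Mhc and Mlc2 were abundant in every group, with Hand at means of 266 to 548 CPM (the count scaled by library size), whereas TpnC4 and prc had group means of at most 0.566 and 1.28 CPM. Fat body and oenocyte markers were also abundant, with summed levels of 91299 to 240423 CPM. Most of that sum was Cyp4g1, with group means of 82412 to 155917 CPM. Gut markers summed to 11589 CPM in attp2 1-week library 3, 16453 and 824 CPM in attp2 5-week libraries 3 and 4, and 673 CPM in library 3 labelled LamC RNAi, against at most 240.1 CPM in the other libraries. Of the 12 gut markers, gammaTry was at 0 in every library. Synthetase results that rest on those 4 libraries are given with and without them. Other named genes are given only from the fits with all libraries. The LamC transcript averaged 171.2 ± 33.6 CPM in attp2 at 1 week and 149.1 ± 42.4 CPM in the libraries labelled LamC RNAi (SD, n = 5 each). The log2 fold change was −0.20 ± 0.20 (SE), with an adjusted p of 0.628, so the transcript gave no check of the label, and LamC RNAi below is only what the libraries are called.

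The cytosolic synthetase genes were the more abundant set. The average of the 5 group means, in CPM per kilobase of exon, had a median of 23.5 over the 20 cytosolic genes (range 11.4 to 91.6) and of 4.29 over the 15 mitochondrial genes (range 1.61 to 23.3). The highest mitochondrial gene was PheRS-m, at 23.3 CPM per kilobase, which is within the cytosolic range, and the next was AspRS-m at 11.8. For 12 amino acids the tables hold 1 cytosolic and 1 mitochondrial gene each, and in all 12 pairs the cytosolic gene was higher per length. The ratio ran from 1.41 for cysteine and 2.38 for leucine to 13.3 for asparagine and 17.6 for valine, with a median of 6.98. AspRS was the highest gene per length (91.6), followed by AlaRS (47.5), AsnRS (46.4), ThrRS (44.9) and TyrRS (44.4). Most exon bases of AspRS are shared with Nmda1 on the opposite strand, so its level may hold reads of Nmda1. The lowest cytosolic gene was CysRS (11.4), and ValRS-m (1.61) and MetRS-m (1.78) were the lowest of all. The subunit genes alpha-PheRS and beta-PheRS had 18.9 and 13.5 CPM per kilobase. Lengths are the merged exon bases of the BDGP6.54 annotation, 1482 to 5453 bases per gene, so these levels depend on that annotation.

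**Figure D1:**
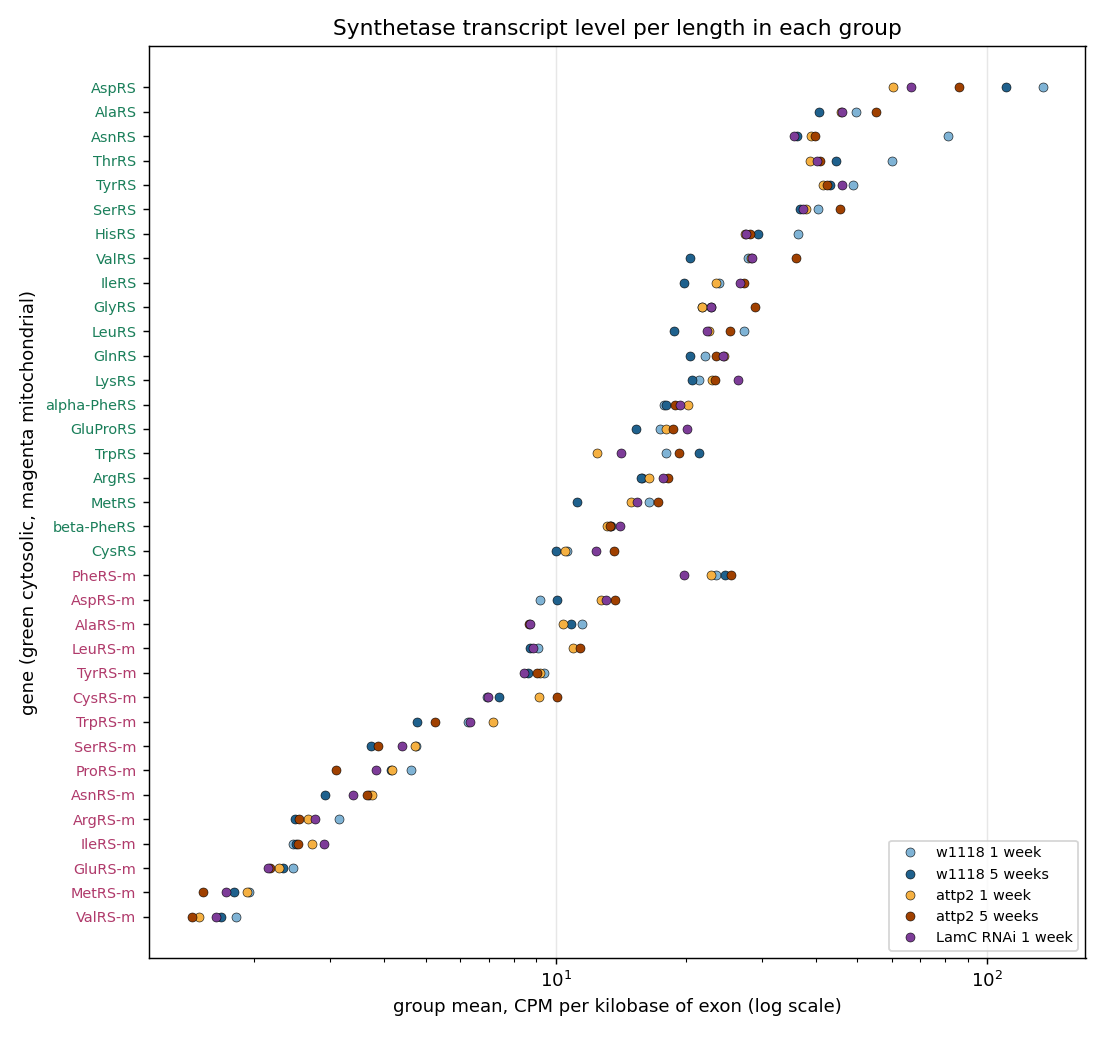
Group means of the 35 synthetase genes in CPM per kilobase of exon on a log axis, with 1 point per group, cytosolic genes above and mitochondrial genes below. The cytosolic genes span 11.4 to 91.6 and the mitochondrial ones 1.61 to 23.3 as averages of the 5 groups, and AspRS, AsnRS and ThrRS have their highest means in w1118 hearts at 1 week.

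Of all members, the 5 with the highest CPM were AspRS (208), AlaRS (156), ThrRS (130.1), AsnRS (110.1) and GluProRS (97.7). AspRS, the aspartate enzyme on chromosome arm 2R, had 354, 300.1, 385 and 182 CPM in w1118 hearts at 1 week and 275, 243, 318 and 165 CPM at 5 weeks. Its attp2 values were 149.9, 181, 132, 115 and 107 CPM at 1 week and 174, 191, 237, 190.0 and 183 CPM at 5 weeks, and those labelled LamC RNAi were 184, 167, 127, 112 and 162 CPM. Library 4 was the lowest of both w1118 groups. The exons of AspRS share 76.3% of their bases with other genes, mostly with Nmda1 on the opposite strand, and since the sources used here do not give the strand setting of the authors' read counter, reads of the pair cannot be told apart. Nmda1 had group means of 509, 617, 269, 470.0 and 327 CPM in the order above.

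AlaRS, the alanine enzyme at 2L from 8378262 to 8381764, had 168, 160.0, 176 and 149.9 CPM in w1118 hearts at 1 week and 139.6, 139.7, 139 and 118 CPM at 5 weeks. In attp2 it had 155, 171, 143, 149.6 and 134 CPM at 1 week, 165, 198, 198, 172 and 175 CPM at 5 weeks, and 174, 167, 142, 125 and 152 CPM in the libraries labelled LamC RNAi. The older libraries lay below all younger ones in w1118, and in attp2 the groups overlapped, with 4 of the 5 older libraries above every younger one. ThrRS, the threonine enzyme at 2L from 12103751 to 12107170, had 193, 168, 177 and 158 CPM in w1118 hearts at 1 week and 132, 151, 119 and 116 CPM at 5 weeks, again with no overlap. Its attp2 values were 106, 128, 118, 108 and 101 CPM at 1 week, 120.3, 123, 133, 108 and 109 CPM at 5 weeks, and 133, 122, 114, 93.5 and 120.1 CPM under the LamC RNAi label, and these 3 groups overlapped. GluProRS, at 3R from 23952136 to 23958391, had 91.2, 85.3, 112 and 91.5 CPM in w1118 hearts at 1 week and 77.6, 83.3, 77.3 and 95.9 CPM at 5 weeks. In attp2 it had 115, 101, 92.6, 96.9 and 85.1 CPM at 1 week, 101, 113, 102, 97.8 and 95.8 CPM at 5 weeks, and 105, 103, 126, 100.3 and 115 CPM in the libraries labelled LamC RNAi. The groups of GluProRS overlapped in every comparison, and it passed no test.

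In w1118 hearts most cytosolic synthetase genes had slightly lower estimates at 5 weeks, and AsnRS differed the most. AsnRS, the asparagine enzyme, fell from a mean of 193 to 86.2 CPM, and LeuRS, the leucine enzyme, fell from 107 to 73.9 CPM. These 2 were the only members past the threshold, an adjusted p under 0.05 by the quasi-likelihood test of edgeR with Benjamini-Hochberg adjustment over all genes tested, the source of every adjusted p below unless another tool is named. No member was called higher. Over all 9631 genes tested, 3.70% were called lower and 5.21% higher (8.91% in both directions), so a count of 2 of 35 lower is near the background. The estimates were below 0 in 18 of 20 cytosolic genes and 11 of 15 mitochondrial genes, with median log2 fold changes of −0.18 and −0.12, beside 0.01 for all genes. Because these are bulk samples, fewer cells of a type and less RNA per cell cannot be told apart.

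AsnRS lies at 2L from 19129469 to 19131954 and has no exon shared with another annotated gene. It had 194, 189.5, 231 and 156 CPM in w1118 hearts at 1 week and 77.0, 82.9, 124 and 60.7 CPM at 5 weeks. Every older library was below every younger one. The log2 fold change was −1.16 ± 0.21 (SE, adjusted p = 0.0102), a fall of 55.3%, and all 13 alternative settings kept the call. The attp2 values of AsnRS were 78.0, 123, 101, 97.0 and 64.4 CPM at 1 week and 88.7, 97.2, 129.6, 89.0 and 68.6 CPM at 5 weeks, and 97.8, 79.7, 90.3, 65.5 and 89.8 CPM in the libraries labelled LamC RNAi. Those 3 groups overlapped almost wholly (log2 fold change with age 0.03 ± 0.18, adjusted p = 0.925). On the scales of the separate tables, the w1118 1-week libraries thus stood above all other AsnRS values.

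LeuRS lies at 2L from 3510328 to 3514656. It had 107, 105, 109.8 and 106 CPM in w1118 hearts at 1 week, a narrow range, and 73.4, 80.1, 86.9 and 55.4 CPM at 5 weeks. The groups did not overlap, and the log2 fold change was −0.54 ± 0.14 (adjusted p = 0.0387). The call was lost in 5 of the 8 fits that left out a library: without 1-week library 1, 2 or 3 or 5-week library 1 or 2, where the adjusted p was 0.0682 to 0.104 and the log2 fold change −0.58 to −0.52. In attp2 LeuRS had 78.3, 112, 93.4, 93.6 and 68.6 CPM at 1 week, 90.2, 109.5, 113, 96.5 and 90.4 CPM at 5 weeks, and 103, 91.2, 94.8, 72.9 and 78.7 CPM under the LamC RNAi label. These groups overlapped, and neither attp2 comparison passed the test (adjusted p = 0.432 and 0.962).

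Further cytosolic genes came close to the threshold in w1118. ThrRS had a log2 fold change of −0.43 ± 0.12 (adjusted p = 0.0563), ValRS of −0.45 ± 0.13 (0.0637) and HisRS, the histidine enzyme, of −0.31 ± 0.09 (0.0641). MetRS, which charges both initiator and elongator tRNA for methionine, had −0.55 ± 0.19 (0.0997). At an unadjusted p under 0.05, 8 cytosolic genes and 1 mitochondrial gene were lower and none was higher, beside 11.7% of all genes lower. DESeq2 called 7 cytosolic genes and 1 mitochondrial gene lower at its adjusted p, beside 7.60% of all genes. The mitochondrial gene was TrpRS-m, at −0.39 ± 0.11 (adjusted p = 0.0516 by edgeR). Only TrpRS and alpha-PheRS among the cytosolic genes had estimates above 0 (0.25 ± 0.12 and 0.01 ± 0.10). Counting genes whose groups did not overlap, 7 members were lower at 5 weeks and 1, TrpRS, was higher, beside 7.91% and 9.34% of all genes tested.

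The summed level of the 20 cytosolic genes was 1858 ± 176 CPM in w1118 hearts at 1 week and 1477 ± 137 CPM at 5 weeks, and that of the 15 mitochondrial genes 245 ± 10.5 and 235 ± 13.7 CPM (SD, n = 4 each). Marker sums of other cells differed between the same libraries. All 7 haemocyte markers were found, and none was at 0 in every library; their sum was 2682 to 3183 CPM at 1 week and 893 to 1489.9 CPM at 5 weeks. The 8 heart tube markers summed to 5649.5 to 6782 CPM at 1 week and 3122 to 4539 CPM at 5 weeks. Most of that sum was Mhc (means of 3254 and 1522 CPM) and Mlc2 (2229 and 1799 CPM). Hand had a higher mean at 5 weeks (460 and 548 CPM) and the other markers lower ones, Sur only slightly (23.4 and 22.6 CPM). The part of any of these cells in the synthetase differences was not tested.

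**Figure D2:**
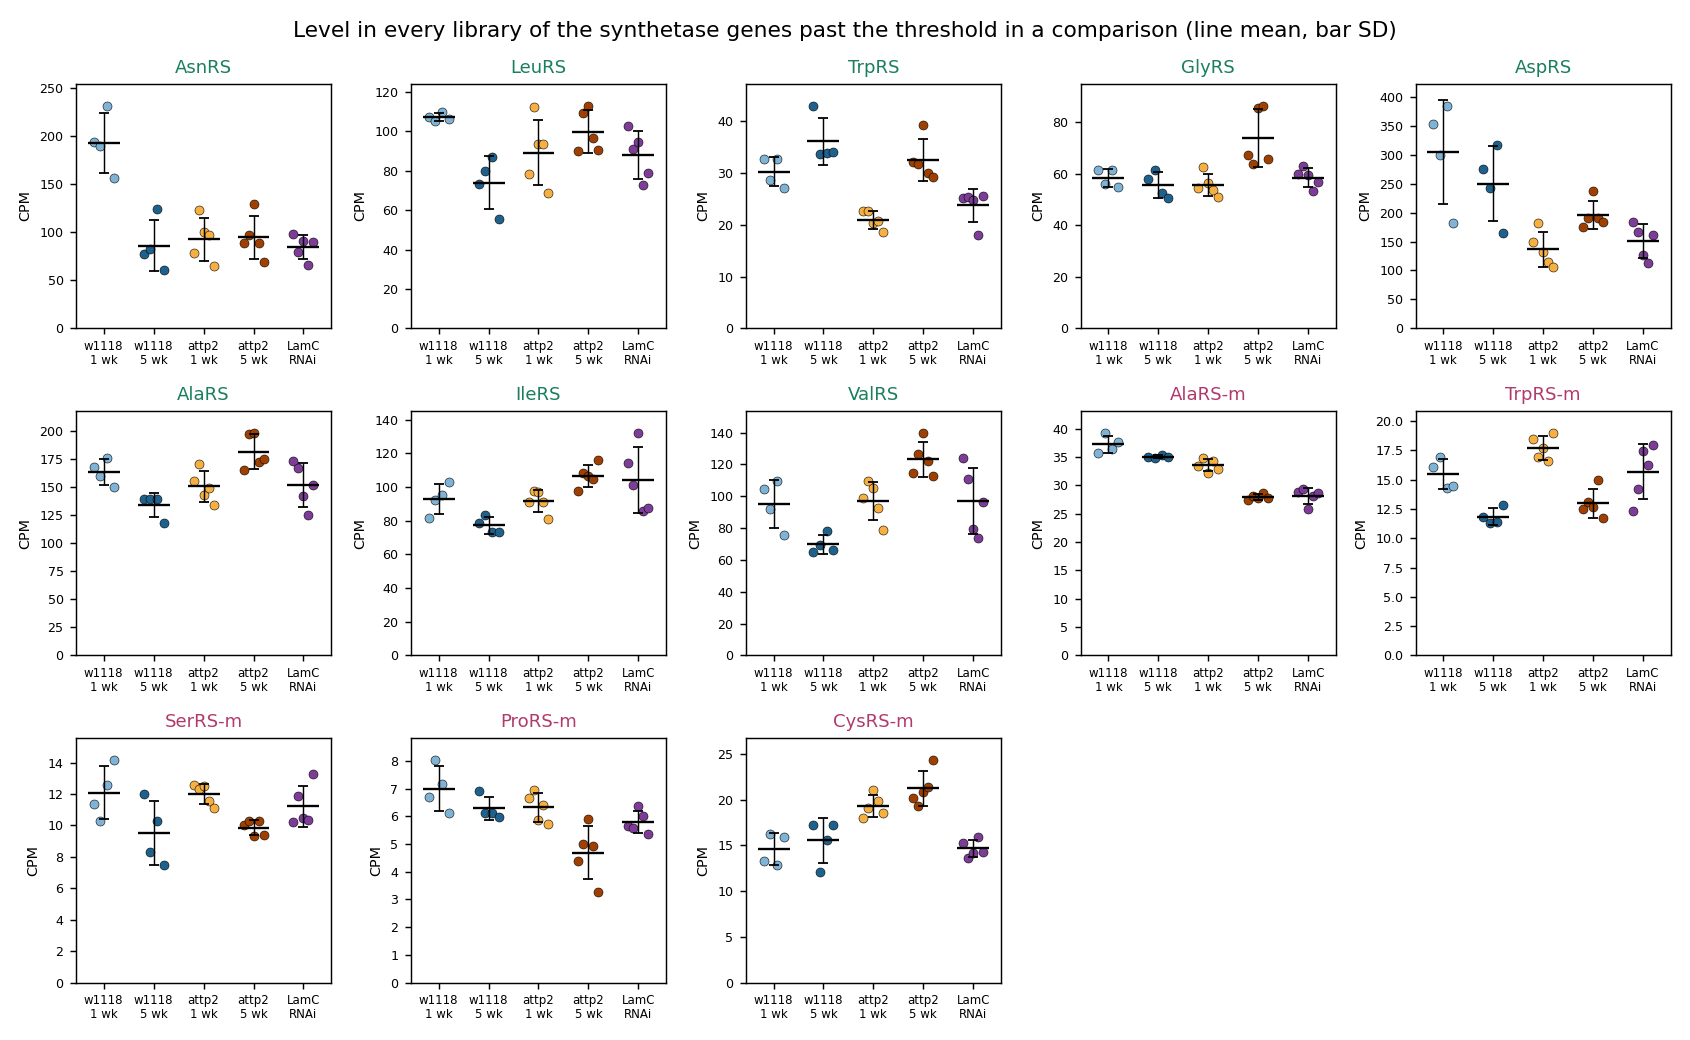
CPM of the 13 synthetase genes past the threshold in at least 1 comparison, with 1 point per library in each of the 5 groups, a line at the mean and a bar of 1 SD, and cytosolic names in green and mitochondrial names in magenta. AsnRS drops from 193 to 86.2 CPM in w1118 with no overlap, TrpRS rises from 21.0 to 32.5 CPM in attp2, and AlaRS-m is at 28.0 CPM in attp2 at 5 weeks and 28.2 CPM under the LamC RNAi label, below the attp2 1-week libraries.

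In attp2 hearts the cytosolic genes that passed the test were higher with age and the mitochondrial ones lower. The cytosolic genes TrpRS, GlyRS and AspRS rose at 5 weeks, and the mitochondrial genes TrpRS-m, ProRS-m, SerRS-m and AlaRS-m fell. No cytosolic member was called lower and no mitochondrial member was called higher. Over all 10044 genes tested, 9.60% were called higher and 10.5% lower (20.1% in both directions). The 7 members called of 35 are thus at the background share, and of the sets, 3 of 20 cytosolic genes were called higher and 4 of 15 mitochondrial genes lower. Estimates were above 0 in 18 of 20 cytosolic genes (median log2 fold change 0.15) and below 0 in 11 of 15 mitochondrial genes (median −0.06), beside a median of 0.03 for all genes. Over the 22 alternative settings, 14 to 18 cytosolic estimates were above 0 (medians 0.10 to 0.20) and 9 to 12 mitochondrial estimates below 0. The cytosolic number was 14 without attp2 1-week library 5 and 15 without the libraries with gut markers. Every older library was above every younger one in 3 members (TrpRS, GlyRS and ValRS) and below in 3 (TrpRS-m, SerRS-m and AlaRS-m), beside 8.42% and 8.70% of all genes.

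TrpRS, the cytosolic tryptophan enzyme at 3R from 9265027 to 9266904, had 22.7, 22.7, 20.4, 20.7 and 18.6 CPM in attp2 at 1 week and 32.1, 31.8, 39.4, 30.1 and 29.2 CPM at 5 weeks. The groups were well apart, and the log2 fold change of 0.63 ± 0.11 (adjusted p = 0.00121) was a rise of 54.7%. All 22 alternative settings kept this call. The libraries labelled LamC RNAi had 25.3, 25.3, 24.8, 18.1 and 25.5 CPM of TrpRS, 4 of them above every attp2 1-week library and 1 below, and did not pass the test (0.18 ± 0.11, adjusted p = 0.381). In w1118 TrpRS had 32.8, 28.7, 32.7 and 27.1 CPM at 1 week and 43.0, 33.8, 34.0 and 34.1 CPM at 5 weeks. There too the older libraries were all higher, but the difference did not pass the test (0.25 ± 0.12, adjusted p = 0.206).

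GlyRS, the glycine enzyme at 3L from 15095142 to 15097686, had 54.5, 62.4, 56.3, 53.8 and 50.9 CPM in attp2 at 1 week and 67.0, 63.8, 85.6, 86.3 and 65.7 CPM at 5 weeks. The groups did not overlap (log2 fold change 0.41 ± 0.10, adjusted p = 0.00869). The highest older values, 85.6 and 86.3 CPM, were those of libraries 3 and 4, which held gut transcripts, and without the libraries with gut markers the log2 fold change was 0.24 with an adjusted p of 0.0936. GlyRS had 61.2, 55.9, 61.2 and 55.0 CPM in w1118 hearts at 1 week, 57.8, 61.5, 52.6 and 50.4 CPM at 5 weeks, and 59.7, 62.9, 59.3, 53.1 and 56.7 CPM in the libraries labelled LamC RNAi. It passed the test in neither of those comparisons.

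AspRS, with its library values above, rose from a mean of 137 ± 29.9 to 195 ± 24.1 CPM in attp2 (log2 fold change 0.51 ± 0.16, adjusted p = 0.0357), and its groups overlapped by 1-week library 2. The call was lost without any of attp2 1-week libraries 3, 4 and 5 or 5-week libraries 3, 4 and 5, where the adjusted p was 0.0556 to 0.0886, and with no filter on low counts (0.0503). Without the libraries with gut markers the log2 fold change was 0.41 (adjusted p = 0.191). Nmda1, which shares most of the AspRS exons on the other strand, moved the same way in attp2 (0.80, adjusted p = 0.00408), and its part in the AspRS counts cannot be told apart.

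Among the mitochondrial genes, AlaRS-m had the smallest spread, with a median coefficient of variation of 3.19% within groups. It lies at 3L from 5146098 to 5149852 and encodes the alanine enzyme of mitochondria. Its values were 33.5, 34.8, 32.2, 34.4 and 32.9 CPM in attp2 at 1 week and 27.5, 28.1, 27.8, 28.8 and 27.7 CPM at 5 weeks. All older libraries were lower, and the log2 fold change of −0.26 ± 0.05 (adjusted p = 0.00218), a fall of 16.6%, kept its call in all 22 alternative settings. In w1118 AlaRS-m had 35.7, 39.2, 36.5 and 37.6 CPM at 1 week and 35.0, 34.8, 35.4 and 35.0 CPM at 5 weeks. The older w1118 libraries were also all lower, but only slightly, and the difference did not pass the test (−0.09 ± 0.09, adjusted p = 0.565).

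TrpRS-m, the mitochondrial tryptophan enzyme at 3L from 17849727 to 17852453, had 18.5, 16.9, 17.7, 16.6 and 19.0 CPM in attp2 at 1 week and 12.5, 13.1, 12.7, 15 and 11.7 CPM at 5 weeks. The groups did not overlap, the log2 fold change was −0.45 ± 0.10 (adjusted p = 0.00744), and all 22 alternative settings kept the call. The cytosolic and the mitochondrial tryptophan gene therefore changed in opposite directions in the same libraries. In w1118 TrpRS-m had 16.1, 17, 14.3 and 14.5 CPM at 1 week and 11.8, 11.3, 11.4 and 12.9 CPM at 5 weeks, again with no overlap, at the adjusted p of 0.0516 given above. It had 12.3, 14.2, 17.5, 16.3 and 18 CPM in the libraries labelled LamC RNAi, which overlapped with the attp2 1-week libraries.

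SerRS-m, the mitochondrial serine enzyme at 3R from 15340667 to 15343218, had 12.6, 12.3, 12.5, 11.6 and 11.1 CPM in attp2 at 1 week and 10, 10.3, 9.31, 10.3 and 9.42 CPM at 5 weeks. The older libraries were all lower (log2 fold change −0.29 ± 0.08, adjusted p = 0.0267). The call was lost without attp2 1-week library 1, 2 or 3 or 5-week library 1, 3 or 5 (adjusted p from 0.0516 to 0.067), without the libraries with gut markers (0.118) and with no filter on low counts (0.054). SerRS-m had 11.3, 10.3, 12.6 and 14.2 CPM in w1118 hearts at 1 week and 12.0, 8.31, 10.3 and 7.49 CPM at 5 weeks, and 10.2, 11.9, 10.5, 10.4 and 13.2 CPM in the libraries labelled LamC RNAi. Both of those comparisons had overlapping groups. Its exons share 13.9% of their bases with Nagk on the opposite strand, which was called higher with age in w1118 (log2 fold change 1.63, adjusted p = 0.000309) and had 0.81 (adjusted p = 0.0831) in attp2.

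ProRS-m, the mitochondrial proline enzyme at 3L from 2650161 to 2651850, had 6.68, 6.97, 5.86, 6.41 and 5.73 CPM in attp2 at 1 week and 4.38, 4.99, 5.89, 4.94 and 3.27 CPM at 5 weeks. The groups overlapped through 5-week library 3, which held gut transcripts, and the log2 fold change was −0.43 ± 0.14 (adjusted p = 0.0387). Without the libraries with gut markers it was −0.62 (adjusted p = 0.0188). The call was lost in 8 of the fits that left out 1 library, those without attp2 1-week library 1, 2, 3 or 4 or 5-week library 1, 2, 4 or 5 (adjusted p from 0.0501 to 0.0904), with no filter on low counts (0.0715) and with only the 2 groups in the fit (0.0697). ProRS-m had 6.69, 8.03, 7.15 and 6.12 CPM in w1118 hearts at 1 week, 6.91, 6.13, 6.12 and 5.99 CPM at 5 weeks and 5.65, 5.59, 6.38, 6.0 and 5.35 CPM in the libraries labelled LamC RNAi. Neither of those comparisons passed the test. The exons of ProRS-m share 2.97% of their bases with CG1246 on the opposite strand. CG1246 had means of 14.8 and 27.2 CPM in attp2 at 1 and 5 weeks, with a highest library value of 127 CPM. Its log2 fold change with age there was 0.88 (adjusted p = 0.792).

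Next to the threshold in attp2 were CysRS (0.37 ± 0.13, adjusted p = 0.0546), AlaRS (0.27 ± 0.09, 0.0599), SerRS (0.26 ± 0.10, 0.0813) and ValRS (0.35 ± 0.13, 0.0851) above 0, and MetRS-m (−0.34 ± 0.12, 0.0694) below it. The summed cytosolic level was 1454 ± 154 CPM at 1 week and 1670.3 ± 124 CPM at 5 weeks (SD, n = 5 each), with ranges of 1238 to 1665 and 1544 to 1859 CPM that overlapped. The summed mitochondrial level was 265 ± 5.59 and 259 ± 11.4 CPM. The haemocyte markers summed to 2765 to 3702 CPM at 1 week and 679 to 949.6 CPM at 5 weeks, and the heart tube markers to 4329 to 6073 and 2731 to 3205 CPM. Most of the heart tube sum was Mhc (means of 2604 and 1258 CPM) and Mlc2 (1848 and 1331 CPM). Hand (266 and 294 CPM) and the scarce prc had higher means at 5 weeks, and the other heart tube markers lower ones. The 6 fat body and oenocyte markers, none at 0 in every library, summed to 159703 to 240423 CPM at 1 week and 135069 to 164216 CPM at 5 weeks. Their part in the synthetase differences was not tested. Without the libraries with gut markers, 4 members were called: TrpRS, AlaRS-m, TrpRS-m and ProRS-m. Of all 10118 genes in that fit, 797 were called higher and 752 lower.

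Whether age acted differently in the 2 strains was tested over the 18 control libraries, as the log2 fold change in attp2 minus that in w1118. Strain and table cannot be told apart in this test. It passed for 3 cytosolic genes, AlaRS, IleRS and ValRS, and for no mitochondrial gene, whereas 0.279% of all 10387 genes were called in that direction, 0.481% in the other and 0.761% in either. Cytosolic differences were above 0 in 19 of 20 genes, with a median of 0.45, and 13 of the 20 had an unadjusted p under 0.05, beside 7.75% of all genes above 0 at that p. Mitochondrial differences were above 0 in 10 of 15 genes, with a median of 0.07 beside 0.04 for all genes, and none had an unadjusted p under 0.05. DESeq2 called 8 cytosolic genes and 0 mitochondrial genes, all above 0, beside 1.82% of all genes in that direction. The count of 19 cytosolic genes above 0 held in all 24 alternative settings, with medians from 0.34 to 0.50.

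ValRS, the valine enzyme on arm 2R, had the smallest adjusted p. It had 105, 91.7, 109 and 75.7 CPM in w1118 hearts at 1 week and 64.9, 69.4, 78.4 and 66.3 CPM at 5 weeks, overlapping through library 4 of the younger group. It had 98.7, 109, 105, 92.5 and 78.8 CPM in attp2 at 1 week, 115, 126, 139.7, 122 and 112 CPM at 5 weeks, and 124, 111, 79.7, 73.9 and 96.5 CPM in the libraries labelled LamC RNAi. All older attp2 libraries were above all younger ones. The 2 age effects were −0.45 ± 0.13 in w1118 and 0.35 ± 0.13 in attp2, and their difference was 0.82 ± 0.16 (adjusted p = 0.0289).

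For AlaRS, the age effects were −0.29 ± 0.11 in w1118 and 0.27 ± 0.09 in attp2, with a difference of 0.58 ± 0.12 (adjusted p = 0.0340). IleRS, the isoleucine enzyme at 3L from 22288665 to 22292810, had 81.4, 92.0, 95.0 and 103 CPM in w1118 hearts at 1 week and 78.4, 83.5, 73.5 and 73.4 CPM at 5 weeks. In attp2 it had 91.1, 97.7, 97.0, 91.0 and 81.3 CPM at 1 week, 97.6, 108, 106, 105 and 116 CPM at 5 weeks, and 114, 101, 132, 85.9 and 87.4 CPM under the LamC RNAi label. Within each strain the age groups overlapped, in attp2 only just, and the difference of the age effects was 0.51 ± 0.11 (adjusted p = 0.0353). AsnRS had the largest difference in size, 1.22 ± 0.31, which did not pass the adjusted threshold (adjusted p = 0.0749).

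These 3 calls depended on single libraries. None of the 3 genes passed without w1118 1-week library 2 or 3, w1118 5-week library 1 or 4, or attp2 1-week library 4. Calls over all genes also fell in those fits, from 29 higher and 50 lower. They were 6 and 5 without w1118 1-week library 2, and 8 and 8 without library 3. They were 17 and 30 without w1118 5-week library 1, 17 and 15 without library 4, and 10 and 7 without attp2 1-week library 4. ValRS passed in 17 of 24 alternative settings, AlaRS in 12 and IleRS in 11, with adjusted p-values of at most 0.10 in any of them. Without the 3 control libraries with gut markers 0 synthetase genes were called by edgeR, beside 24 higher and 49 lower of all 10395 genes. In that fit 12 cytosolic genes were above 0 at an unadjusted p under 0.05 (7.06% of all genes). The differences were 0.79 for ValRS, 0.55 for AlaRS and 0.55 for IleRS (adjusted p = 0.0598, 0.10 and 0.0903). The differences kept their sign in all of these settings.

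**Figure D3:**
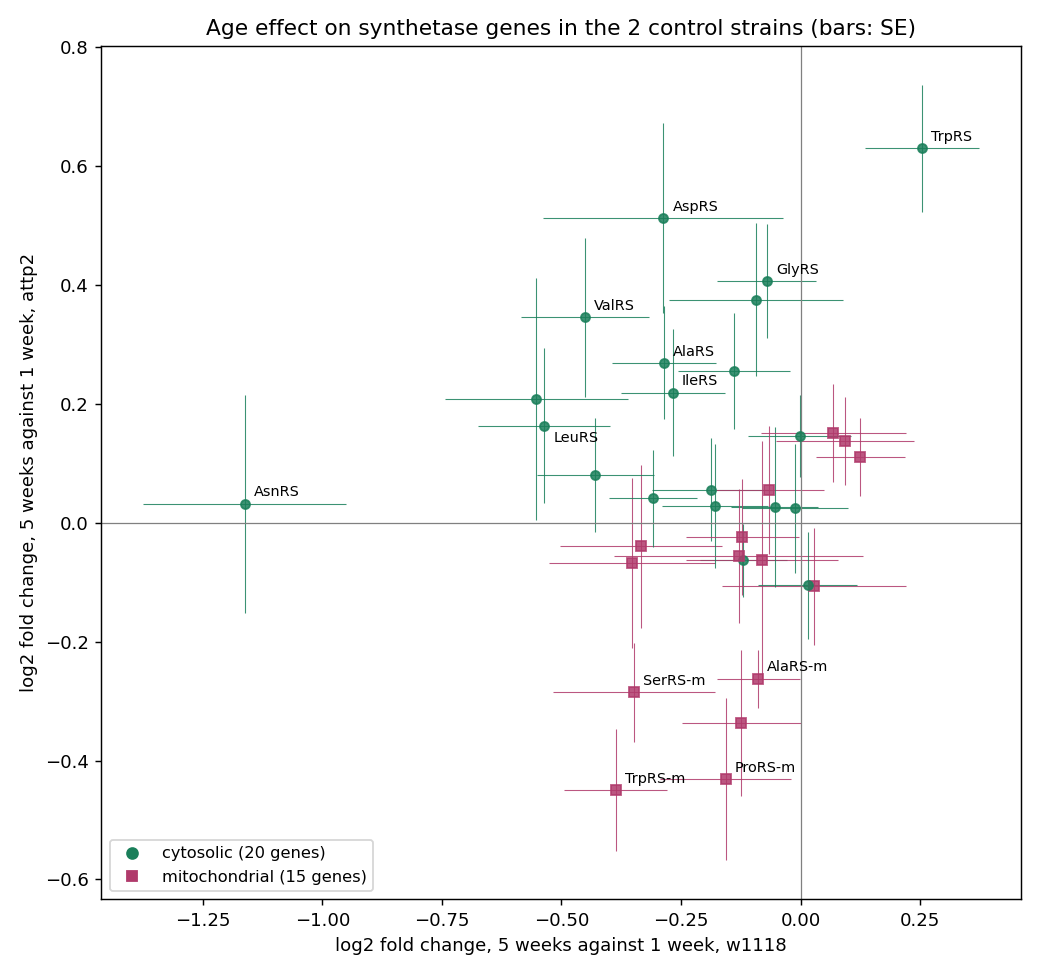
Log2 fold change at 5 weeks against 1 week in w1118 (horizontal axis) and attp2 (vertical axis) for 20 cytosolic genes (circles) and 15 mitochondrial genes (squares), with SE bars and names for genes past the threshold in a comparison of the control libraries. Most circles lie left of and above 0 (18 of 20 below 0 in w1118 and 18 of 20 above 0 in attp2), and 11 of the 15 squares lie below 0 on each axis.

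The 9 cytosolic class I genes had median log2 fold changes with age of −0.18 in w1118 and 0.21 in attp2, and the 10 cytosolic class II genes −0.21 and 0.06. The 9 mitochondrial class I genes had medians of −0.12 and −0.06, and the 6 mitochondrial class II genes −0.12 and −0.15. GluProRS, which holds an enzyme of each class, was counted in neither. The 8 cytosolic genes whose mammalian counterparts sit in the complex had medians of −0.23 and 0.15, and the other 12 cytosolic genes −0.16 and 0.17. These splits were described, not tested.

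With the LamC RNAi label the cytosolic synthetase genes passed no test against attp2 at 1 week, and the mitochondrial genes AlaRS-m and CysRS-m fell. Over all 10044 genes, 1.54% were called lower and 0.866% higher (2.41% in both directions), and the count here was 2 lower and 0 higher of 35. Of the cytosolic genes, 0 of 20 were called by edgeR or by DESeq2, which called 6.89% of all genes, and 0 had an unadjusted p under 0.05, where edgeR placed 19.2% of all genes. The cytosolic estimates ran from −0.13 (AsnRS) to 0.24 (CysRS), with 15 of 20 above 0 and a median of 0.06 beside 0.03 for all genes. Among the mitochondrial genes, 11 of 15 estimates were below 0, with a median of −0.13.

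AlaRS-m had 28.9, 29.3, 25.8, 28.2 and 28.6 CPM in the libraries labelled LamC RNAi, all of them below the attp2 1-week range of 32.2 to 34.8 CPM. The log2 fold change was −0.25 ± 0.05 (adjusted p = 0.0171). CysRS-m, the mitochondrial cysteine enzyme on arm 2R, had 18, 19.1, 21.1, 19.9 and 18.5 CPM in attp2 at 1 week and 15.3, 13.7, 14.2, 15.9 and 14.3 CPM in the libraries labelled LamC RNAi. These groups too were apart, with a log2 fold change of −0.40 ± 0.07 (adjusted p = 0.0139), a fall of 24.0%. Beside these 2 genes, 2.83% of all genes had every library labelled LamC RNAi below every attp2 1-week library and 2.17% had it above.

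CysRS-m had 20.2, 19.4, 20.8, 21.4 and 24.3 CPM in attp2 at 5 weeks, and 13.3, 16.2, 12.9 and 16.0 CPM at 1 week and 17.3, 12.1, 15.6 and 17.3 CPM at 5 weeks in w1118. It passed the test with age in neither strain (0.14 ± 0.07, adjusted p = 0.225, in attp2 and 0.09 ± 0.14, adjusted p = 0.738, in w1118). Its exons share 14.3% of their bases with CG13016 on the opposite strand, whose log2 fold change under the LamC RNAi label was 0.10 (adjusted p = 0.471). Without the libraries with gut markers 0 of 35 genes were called by edgeR, with 2 mitochondrial genes lower at an unadjusted p under 0.05 (6.04% of all genes), and the log2 fold changes were −0.24 for AlaRS-m (adjusted p = 0.102) and −0.35 for CysRS-m (0.122). With only the 2 groups in the fit AlaRS-m was not called (−0.25, adjusted p = 0.0736). Further mitochondrial genes with an unadjusted p under 0.05 were LeuRS-m (−0.31 ± 0.11, adjusted p = 0.147) and PheRS-m (−0.21 ± 0.08, 0.195).

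The age comparison in attp2 and the LamC RNAi comparison share the 5 attp2 1-week libraries, so their values are set side by side only. AlaRS-m was called lower in both (−0.26 and −0.25). CysRS-m had −0.40 under the LamC RNAi label and 0.14 with age, and TrpRS-m −0.18 and −0.45. PheRS-m, called in neither, had −0.21 and 0.15. Summed over the set, the mitochondrial level was 241 ± 4.91 CPM in the libraries labelled LamC RNAi and the cytosolic level 1518 ± 173 CPM (SD, n = 5). The haemocyte markers summed to 3423 to 5493 CPM in these libraries and the fat body and oenocyte markers to 110441 to 209457 CPM. Most of the latter sum was Cyp4g1, with a mean of 109479 CPM here and 155917 CPM in attp2 at 1 week. FASN2 and Lsd-1 also had lower means here, whereas FASN1, apolpp and Yp1 had higher ones. Library 3 also held ovary markers at a sum of 491 CPM. The part of all these cells in the mitochondrial differences was not tested.

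**Figure D4:**
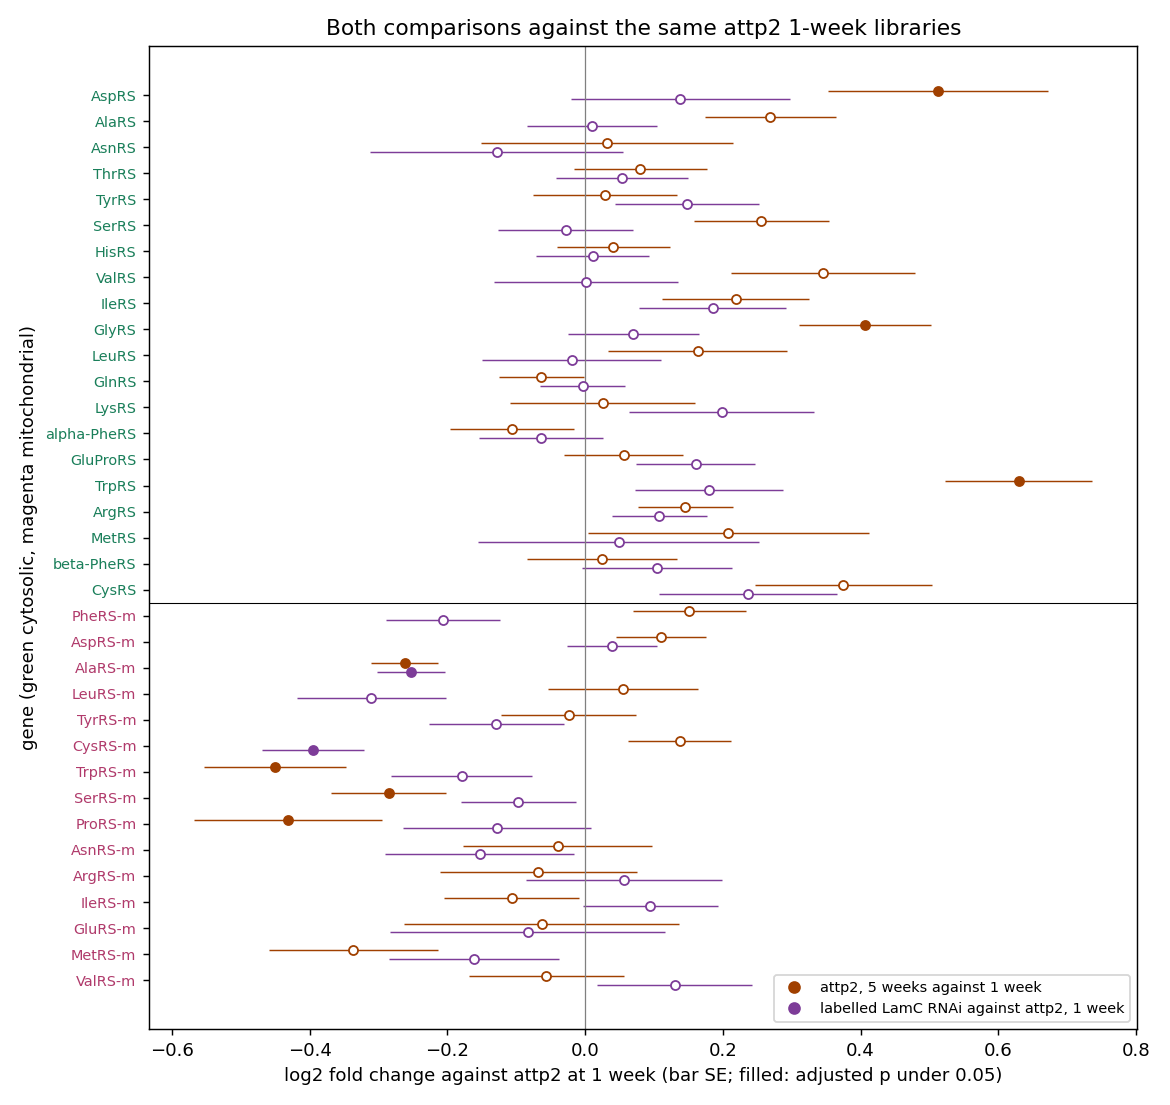
Log2 fold change of each synthetase gene against the same attp2 1-week libraries, for attp2 at 5 weeks (brown) and the libraries labelled LamC RNAi (purple), with SE bars and filled points at an adjusted p under 0.05. AlaRS-m is filled in both at −0.26 and −0.25, CysRS-m only under the LamC RNAi label, and no cytosolic gene is filled in purple.

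Libraries of a group differed in cytosolic synthetase level as a whole. Library 4 labelled LamC RNAi was the lowest of its 5 libraries in 20 of 20 cytosolic genes, and attp2 1-week library 5 was the lowest of its group in 18 of 20. Their cytosolic sums were 1237 and 1238 CPM, against 1499 to 1697 CPM and 1408 to 1665 CPM in the other libraries of their groups. Of the 15 mitochondrial genes, the first of these libraries was the lowest in 2 and the second in 3. The 5 nephrocyte markers, of which none was at 0 in every library, summed to 5987 and 5360.5 CPM in these 2 libraries, the highest sums of their groups, beside 3113 to 5424 CPM and 2618 to 4091 CPM in the others. In w1118 hearts at 1 week, by contrast, library 3 had both the highest nephrocyte sum (3180 CPM) and the highest cytosolic sum (2040 CPM). The fat body and oenocyte sum was highest of its group in library 4 labelled LamC RNAi (209457 CPM), but not in attp2 1-week library 5 (191436 CPM). It was also highest in library 4 of both w1118 groups (152270 and 136442 CPM), which had the lowest cytosolic sums there. The part of RNA from these cells in the synthetase levels was not tested. The most variable cytosolic genes within groups were AsnRS, AspRS and MetRS, with median coefficients of variation of 23.5%, 21.9% and 21.3%, and the least variable was GlnRS, the glutamine enzyme, at 4.60%.

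**Figure D5:**
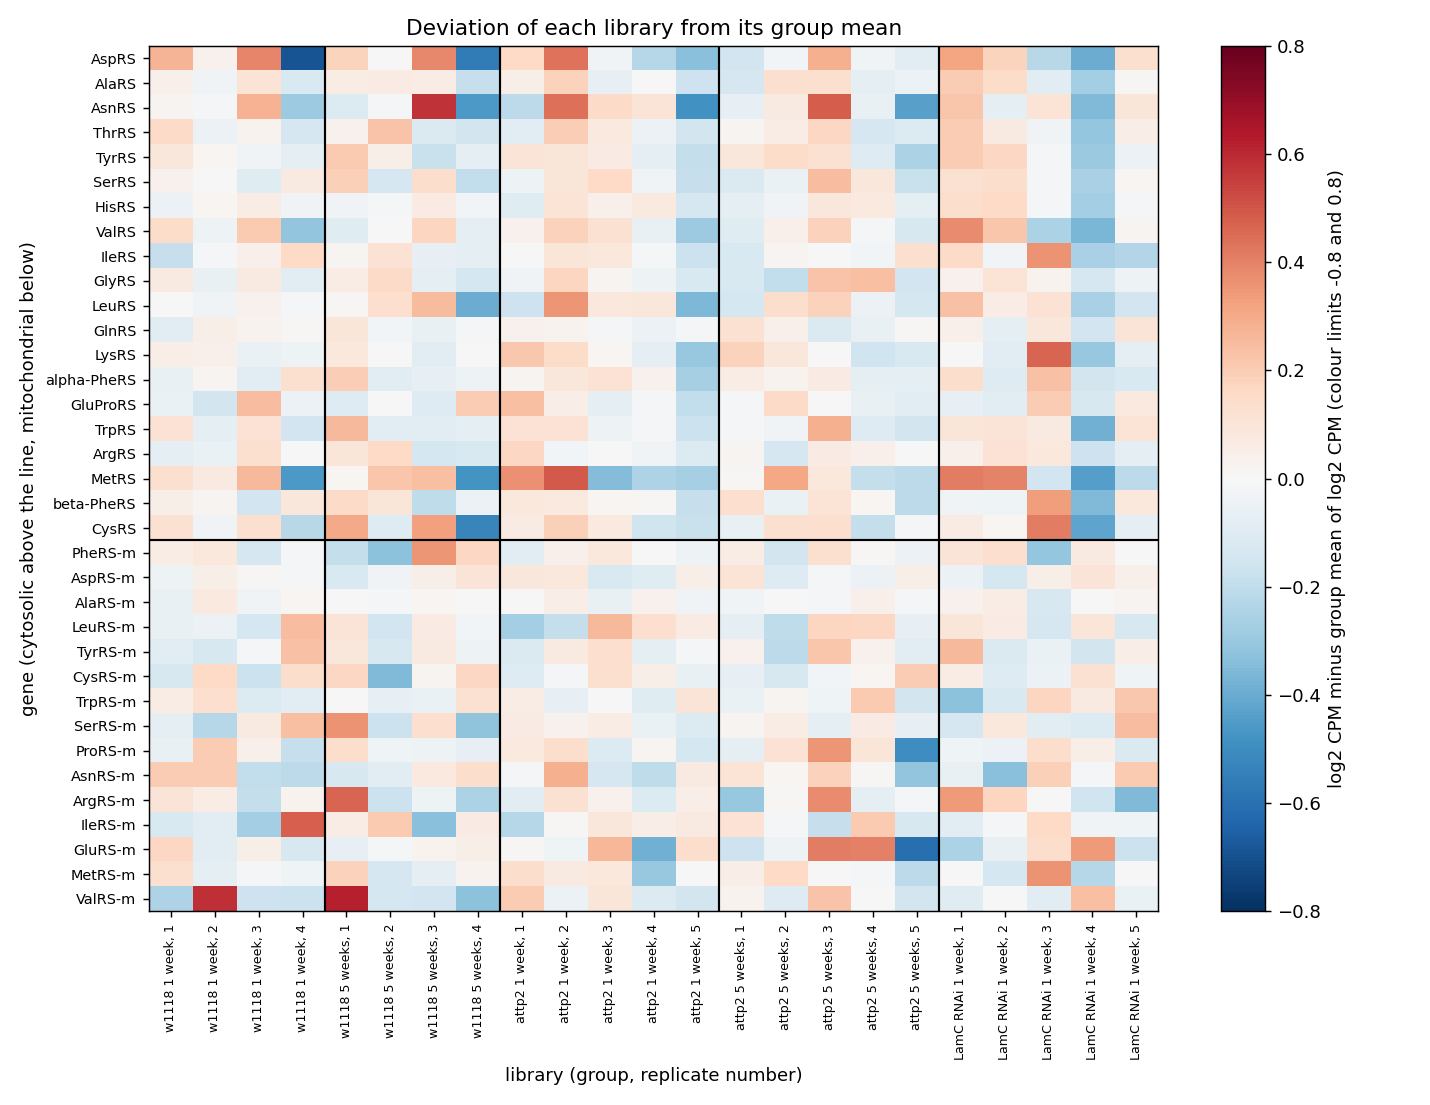
Deviation of every library from its group mean in log2 CPM, with 35 genes in rows (20 cytosolic above the line, 15 mitochondrial below) and 23 libraries in columns, red above and blue below the group mean. The columns of attp2 1-week library 5 and of library 4 labelled LamC RNAi are blue through nearly all cytosolic rows but not through the mitochondrial rows, and the AspRS, AsnRS and MetRS rows have the strongest colours among the cytosolic genes.

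Genes that work beside the synthetases were read from fixed lists. Their values come only from the fits with all libraries, those with gut markers included, so the alternative settings were not examined for them. The 3 scaffold genes AIMP1, AIMP2 and AIMP3 passed no test in any comparison, with estimates between −0.25 and 0.07 in the age and LamC RNAi comparisons. Of 11 genes of the integrated stress response and amino acid supply, 2 were lower with age in w1118 and 0 higher, beside the 3.70% lower and 5.21% higher of all genes. These were AsnS, asparagine synthetase, which fell from a mean of 134 to 68.4 CPM (log2 fold change −0.97 ± 0.26, adjusted p = 0.0461), and PEK, the endoplasmic reticulum kinase of eIF2alpha, which fell from 85.7 to 57.2 CPM (−0.58 ± 0.13, adjusted p = 0.0227). AsnS makes the amino acid that AsnRS attaches to its tRNA, and both were among the lower genes in w1118. In attp2 AsnS had −0.53 ± 0.23 (adjusted p = 0.125).

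In attp2, 2 of the 11 were higher with age and 1 was lower, beside 9.60% higher and 10.5% lower of all genes. The factor gene crc rose from 230.4 to 307 CPM (log2 fold change 0.42 ± 0.07, adjusted p = 0.000988), and PPP1R15, the regulatory subunit of the phosphatase that resets eIF2alpha, rose from 64.0 to 78.8 CPM (0.30 ± 0.09, adjusted p = 0.0270). Thor, the translation inhibitor 4E-BP, fell from 691 to 423 CPM (−0.71 ± 0.23, adjusted p = 0.0471). In w1118 crc had 0.26 ± 0.11 (adjusted p = 0.160), and none of the 11 genes passed with the LamC RNAi label or in the test of the strain difference. Of 14 listed mitochondrial charging and translation factors 12 were found and 11 tested. In attp2, 2 of the 11 tested fell with age, beside 10.5% of all genes called lower. Both are elongation factor Tu genes, EfTuM, which is mEFTu1 (−0.33 ± 0.08, adjusted p = 0.00871), and CG12736, which is mEFTu2 (−0.31 ± 0.09, adjusted p = 0.0208). GatA and GatB, the parts of the amidotransferase that were tested, had 0.01 and 0.30 in w1118 and −0.02 and 0.01 in attp2 and were not called, and no gene of this list passed in the other comparisons.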

How the data were processed

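Hearts of 23 libraries in 5 groups were measured by bulk RNA-seq, from TruSeq Stranded mRNA libraries per the labels' protocols. The submitters' processing notes name STAR, cutadapt, DESeq2 and build dm6; the sources used here do not give versions, the annotation, the read counter or its strand setting. The authors deposited raw counts per gene symbol in 2 tables, w1118 and attp2 with LamC RNAi. The authors' deposited log2 values, checked to be log2 of the count over a library's size factor plus 1, were not used for tests.

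Tests used edgeR 4.0.16 in R 4.3.3 (filterByExpr, TMM, two-sided quasi-likelihood test, Benjamini-Hochberg over all genes, threshold 0.05). Separate fits covered the w1118 table (9631 genes), all 3 groups of the attp2 table (10044) and the strain difference over 18 libraries (10387). SE is the size of the log2 fold change over the square root of F. Levels are TMM-scaled CPM, scaled within each table, and tests between tables were made only for the age difference. Alternatives were DESeq2 1.42.0, its size factors, no filter, a mean of at least 5 CPM, each library left out, a replicate block, only the 2 groups compared, and, chosen after seeing the data, leaving out the 4 libraries with gut markers. The tests were tested on simulated counts, with 100 genes changed by 2.0-fold and 100 by 1.5-fold in each fit. At 2.0-fold, 59% were recovered for age in w1118, 37% for age in attp2 and 15% for the interaction, and at 1.5-fold 16%, 13% and 1%. More genes than that were called for age in the data (858 in w1118 and 2018 in attp2), so recovery there may differ.

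Members and lists were chosen with earlier results of these data known. Every gene past the threshold, and the 5 of highest mean CPM, are given by library. Symbols were matched to RefSeq (13263 current, 3700 older, 140 unmatched), and coordinates and exon lengths are from BDGP6.54, 1-based. No 2 libraries of a group were copies: chi-square per gene was at least 62.9 over 42 pairs, where sampling noise alone gives 1.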

Additional observations from a re-analysis of the deposited data

Results flagged for a closer look

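In 13 of the 175 combinations of gene and group, 1 library lay far from the others of its group by Dixon's test at the 95% level, where chance alone gives about 8.75. In w1118 at 1 week, ValRS-m was 8.59 CPM in library 2 against 4.84 to 5.11 in the others. In w1118 at 5 weeks, library 1 was high for ProRS-m (6.91 CPM), TrpRS (43.0), ValRS-m (8.09) and alpha-PheRS (34.8), and library 4 was low for AlaRS (118 CPM against 139 to 139.7). These 4 high values came from a single library.

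In attp2 at 1 week, library 1 was low for IleRS-m (6.69 CPM), and library 5 was low for alpha-PheRS (28.5 CPM) and beta-PheRS (22.5 CPM), both subunits of the cytosolic phenylalanine enzyme. In attp2 at 5 weeks, library 3, which held gut transcripts, was high for AspRS (237 CPM) and TrpRS (39.4 CPM). Under the LamC RNAi label, library 4 was low for TrpRS (18.1 CPM against 24.8 to 25.5) and high for ValRS-m (6.23 CPM against 4.93 to 5.27).

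The age effect differed between the strains in 3 cytosolic genes by the interaction test, with attp2 minus w1118 at 0.58 for AlaRS, 0.51 for IleRS and 0.82 for ValRS on the log2 scale.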

How the results depend on the processing

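Counts of synthetase genes called were 2 for age in w1118, 7 for age in attp2, 2 for the LamC RNAi label and 3 for the strain difference. With DESeq2 they were 8, 10, 2 and 8, and with DESeq2's size factors 4, 7, 2 and 3. With no filter on low counts they were 2, 4, 2 and 1, and with a mean of at least 5 CPM 3, 9, 2 and 4. Calls over all genes moved too. For age in attp2, edgeR called 964 higher and 1054 lower of 10044, and DESeq2 1195 and 1351. No filter gave 792 and 911 of 14401, and the filter at 5 CPM 870 and 918 of 7026. For age in w1118, DESeq2 called 844 higher and 732 lower of 9631, where edgeR called 502 and 356. With only the 2 groups compared, age in attp2 gave 10 synthetase genes and the LamC RNAi label 1. Over all genes those fits called 1120 higher and 1110 lower of 9601, and 60 and 72 of 9468. Without the libraries with gut markers age in attp2 gave 4 synthetase genes, the LamC RNAi label 0 and the strain difference 0 by edgeR. Those fits called 797 higher and 752 lower, 38 and 37, and 24 and 49 over all genes. Leaving out 1 library at a time gave 1 to 6 synthetase genes for age in w1118 and 4 to 9 for age in attp2. It gave 2 in every case for the LamC RNAi label and 0 to 6 for the strain difference. Over all genes, 174 to 578 were then called higher and 124 to 512 lower for age in w1118. For age in attp2 they were 690 to 1105 and 788 to 1158, and for the LamC RNAi label 47 to 148 and 56 to 247. For the strain difference they were 6 to 115 and 5 to 156. No called gene changed sign under any setting; where calls were lost, the cause was not tested.

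The replicate numbers were not taken as pairs: same-numbered libraries correlated at −0.00889 to 0.154 in w1118 and −0.138 to 0.848 in attp2, with 1 of 4 and 11 of 15 pairs over 0.1, and 3 of 8 and 4 of 15 libraries correlated best with their own number. The 3 highest same-number values in attp2, 0.848, 0.600 and 0.565, were between the libraries numbered 3, which all held gut markers. The attp2 5-week library 4, also with gut markers, correlated at 0.514 with attp2 1-week library 3 and at 0.561 with library 3 labelled LamC RNAi. The deposited columns of the attp2 libraries also carry letters, which do not line up with the replicate numbers across groups. A pairing by letter was not examined. With the replicate block, which used the numbers, edgeR called 509 of all genes higher and 389 lower for age in w1118. It called 1122 and 1215 for age in attp2, 116 and 177 for the LamC RNAi label, and 70 and 106 for the strain difference. The counts of synthetase genes were 3, 9, 2 and 6. Age in w1118 then added MetRS and age in attp2 AlaRS and CysRS, and the strain difference was called for AlaRS, AsnRS, AspRS, LeuRS, MetRS and ValRS but not IleRS. Counting error is largest for the mitochondrial genes, whose counts went down to 83.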

Other observations

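The cytosolic elongation factors, which carry charged tRNAs to the ribosome and move it along, were also read from a fixed list. They too are given only from the fits with all libraries, those with gut markers included. Of 7 listed genes, 2 fell with age in attp2 and 0 rose, beside 10.5% lower and 9.60% higher of all genes: Ef1alpha48D, the main elongation factor 1 alpha gene (log2 fold change −0.35 ± 0.11, adjusted p = 0.0442), and EF2, the translocase (−0.25 ± 0.08, adjusted p = 0.0488). Ef1gamma had −0.32 ± 0.11 (adjusted p = 0.0502). None of the 7 was called in w1118, under the LamC RNAi label or in the test of the strain difference by edgeR, and Ef1alpha100E, the second alpha gene, had 0.63 ± 0.21 (adjusted p = 0.0884) in w1118.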
